A study of Mus musculus with 9 samples.

Results

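Prox1, Flt4, Vegfc, Lyve1, Pdpn and Mmrn1 are 6 genes by which the lymphatic endothelium and its growth signal are commonly recognised, and their signals were followed in the stromal vascular fraction (SVF), the mixed cells freed from fat by enzymatic digestion, after the fat had been surgically primed. A probe set, the group of short probes that reads a transcript on the array, was assigned to a gene when the platform annotation gave it that gene symbol alone. This rule found 13 probe sets for the 6 genes, among 45101 probe sets on the array and 18193 genes with a probe set of their own. Of the 13 probe sets, 9 had a present detection call in all 3 mice of some day and were tested, and each of the 6 genes had at least 1 of them.

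The SVF came from the inguinal fat of 9 wild-type Balb/c mice aged 10 weeks, 3 mice at day 0, 3 at day 1 and 3 at day 3, with 1 array per mouse. The study asked how priming alters the SVF, and priming in its methods was mincing of the fat together with ligation of the artery that feeds it. The sample labels name the injury and the day but not the ligation, and day 0 is taken here as the nonprimed group. The digest mixes endothelial, stromal and blood-borne cells of each mouse, so a signal is an average over cell types.

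Lymphatic vessels drain fluid, fat and immune cells from adipose tissue. Their endothelium is set apart from blood endothelium by the transcription factor PROX1, which keeps the lymphatic fate, and grows when the ligand VEGF-C, once cut to its mature form, binds the receptor VEGFR-3, the product of Flt4. LYVE-1 binds hyaluronan, podoplanin (Pdpn) binds the platelet receptor CLEC-2 and keeps blood out of the lymphatics, and multimerin-1 (Mmrn1) is a secreted protein of platelets and endothelium. None of them belongs to lymphatic endothelium alone, since tissue macrophages also carry LYVE-1, activated fibroblasts and macrophages podoplanin, and platelets multimerin-1.

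The 6 genes did not move together. On day 1 Pdpn was 3.79-fold higher than on day 0, while Prox1, Vegfc and Mmrn1 were 2.15-fold, 1.82-fold and 1.60-fold lower, and Lyve1 and Flt4 did not pass the test. On day 3 Pdpn was 2.54-fold and Flt4 1.43-fold higher than on day 0, Lyve1 and Mmrn1 were 1.63-fold and 1.77-fold lower, and Prox1 and Vegfc did not pass. Each gene was tested on its brightest probe set with limma across all 11796 measurable genes, and a gene was called when its Benjamini-Hochberg adjusted p was under 0.05. In tissue-level RNA such as this, fewer cells of a type and less RNA per cell cannot be told apart.

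Against the background of all tested genes these counts were as follows. On day 1, 1 member was called higher and 3 lower, where 10.7% of all genes were called higher and 17.9% lower. On day 3 against day 0, 2 were higher and 2 lower, where the shares of all genes were 13.6% and 12.5%. Between day 3 and day 1, 2 were higher (Flt4 and Vegfc) and 2 lower (Lyve1 and Pdpn), against shares of 9.66% and 4.54% for all genes. The 3 arrays of each day did not overlap for 4 of 6 members between day 1 and day 0, for 5 of 6 between day 3 and day 0 and for 3 of 6 between day 3 and day 1, beside 40.0%, 47.2% and 35.0% of all genes. The median log2 difference of the 6 was -0.45 on day 1 and -0.46 on day 3, beside -0.13 and -0.03 for all genes. The 3′ to 5′ ratio of the Gapdh control, a sign of RNA quality, also differed between days, at 0.633 to 0.709 on days 1 and 3 and 0.537 to 0.592 on day 0, and its part in the results was not tested. With only 6 members, a count of 1 to 3 is a description of these genes and not of a pathway. The shares of all genes given here for each comparison are also the background for the counts of every further list below.

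The direction of calls across all genes depended on scaling. Of all calls between day 1 and day 0, 62.5% were lower with the signals as deposited, 51.8% after quantile normalization and 42.8% when each array was centred on the median of the tested genes. Between day 3 and day 1 the share of lower calls was 32% as deposited, 39.5% after quantile normalization and 56.6% after centring. None of the 6 members changed sign under either scaling in any of the 3 comparisons. Quantile normalization ended the day 1 call of Mmrn1 (adjusted p = 0.125, limma) and the calls of Pdpn and Vegfc between day 3 and day 1 (adjusted p = 0.0888 and 0.0972), and centring ended that of Vegfc (adjusted p = 0.0853).

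**Figure D1:**
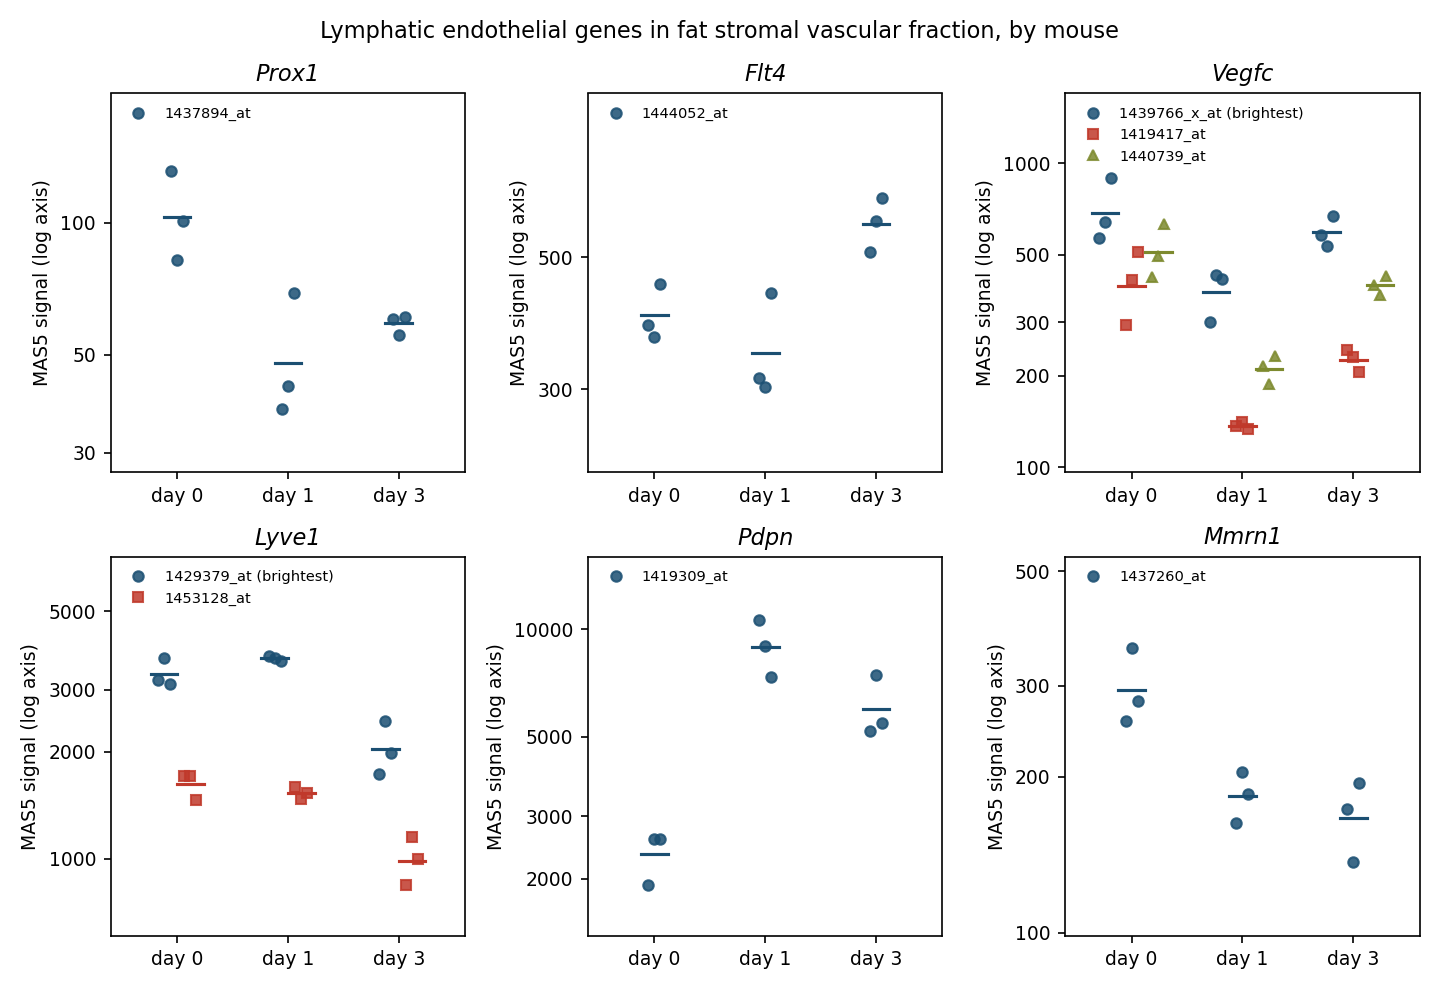
MAS5 signal (log axis, arbitrary units) of each member by day, with 1 point per mouse, 1 colour and symbol per tested probe set and a horizontal line at the mean of the log2 signals. Pdpn stands between 7365 and 10607 on day 1 and at or under 2585 on day 0, while both Lyve1 probe sets are lowest on day 3 and all 3 Vegfc probe sets are lowest on day 1.

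**Figure D2:**
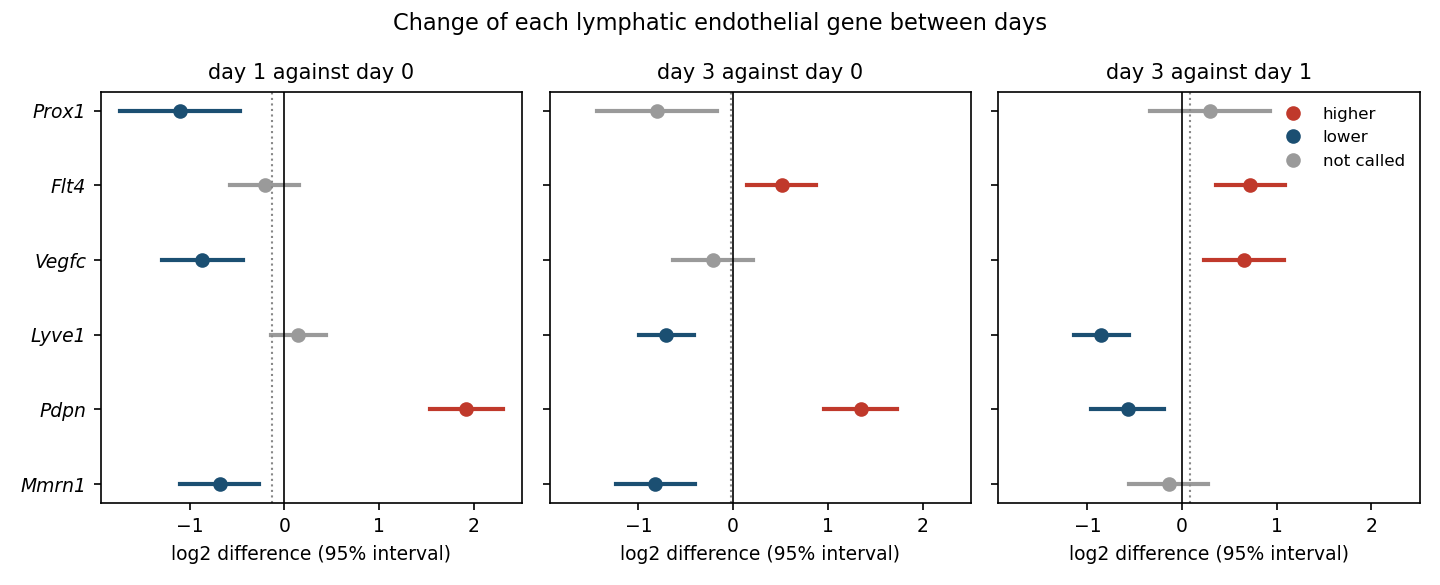
Log2 difference of each member (x axis) in the 3 comparisons, with the 95% confidence interval from limma as a bar, calls coloured by direction and the median of all 11796 genes as a dotted line. Pdpn, at 1.92 on day 1 and 1.35 on day 3, is the only member above its day 0 level with a call on both days.

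RefSeq promoters, from 250 bases before to 50 bases after the start of transcription in the GRCm38.p6 assembly, were matched for 5 of the 6 members, and Lyve1 had no match. The 3 below are those of the member that was higher on both days and of the 2 that fell most on day 1, to show the sequence in front of genes that moved in opposite directions. Pdpn lies at chr4:143299515-143299814 on the minus strand, the upstream of the 2 Prox1 starts at chr1:190170778-190171077 on the minus strand, and Vegfc at chr8:54077282-54077581 on the plus strand. Capitals mark matches, on either strand, to the motifs searched.
Pdpn: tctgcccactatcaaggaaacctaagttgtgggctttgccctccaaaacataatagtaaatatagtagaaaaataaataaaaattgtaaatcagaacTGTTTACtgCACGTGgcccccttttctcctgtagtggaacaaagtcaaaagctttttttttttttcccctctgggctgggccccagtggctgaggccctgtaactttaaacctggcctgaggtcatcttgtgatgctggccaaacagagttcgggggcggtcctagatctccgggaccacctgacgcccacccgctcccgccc
Prox1: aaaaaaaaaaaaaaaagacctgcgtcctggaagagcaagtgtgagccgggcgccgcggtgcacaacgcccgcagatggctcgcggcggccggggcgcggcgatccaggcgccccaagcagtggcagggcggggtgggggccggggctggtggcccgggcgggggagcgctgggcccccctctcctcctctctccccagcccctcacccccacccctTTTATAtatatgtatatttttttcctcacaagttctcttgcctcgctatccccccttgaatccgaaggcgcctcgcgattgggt
Vegfc: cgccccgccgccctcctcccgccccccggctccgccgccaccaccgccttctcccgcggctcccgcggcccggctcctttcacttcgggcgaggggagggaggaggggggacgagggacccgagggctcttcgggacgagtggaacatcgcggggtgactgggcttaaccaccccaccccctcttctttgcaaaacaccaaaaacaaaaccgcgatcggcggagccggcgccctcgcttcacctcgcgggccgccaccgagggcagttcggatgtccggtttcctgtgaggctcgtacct

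The motifs searched on both strands were TGANTCA for AP-1, ACGTG for hypoxia response, TGTTTAC for forkhead factors, AGATAA for GATA factors, AACAAT for SOX factors and TATAAA for the TATA box. The Pdpn promoter held TGTTTAC at position -153 and ACGTG on both strands at positions -144 and -143, which overlap as a palindrome. Of the 32851 promoters of this length, 3.65% held the forkhead motif and 19.6% the hypoxia motif. The Prox1 promoter held TATAAA at position -34 on the strand opposite to the gene, so that the printed sequence reads TTTATA there. A match on either strand was held by 13.6% of promoters. The Vegfc promoter held none of the 6 motifs. GC content was 48.7% in the Pdpn promoter, 64.3% in that of Prox1 and 70.3% in that of Vegfc. A match here is a string of letters and was not tested as a binding site.

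Prox1, the transcription factor of lymphatic identity, was weakly detected and fell on day 1. Its 1437894_at signals were 131, 82 and 101 on day 0, 38, 42 and 69 on day 1, and 60, 56 and 61 on day 3, all called present. Every day 1 and day 3 array lay below every day 0 array, and the day 3 arrays were the closest together. Prox1 changed by -1.10 ± 0.29 on the log2 scale on day 1 (SE, n = 3 arrays a day, limma adjusted p = 0.0169) and by -0.80 ± 0.29 on day 3, where it missed the threshold (adjusted p = 0.0614, 95% interval -1.44 to -0.17). The difference between day 3 and day 1 was 0.30 ± 0.29 (adjusted p = 0.514, interval -0.34 to 0.93). The day 1 call was lost without day 0 replicate 1 (adjusted p = 0.0684), day 0 replicate 3 (0.0517), day 1 replicate 1 (0.0645) or day 1 replicate 2 (0.0524), and a day 3 call appeared without day 1 replicate 3 (adjusted p = 0.037). The day 3 fall also passed with an offset of 16 or 64 added to the signals (adjusted p = 0.0486 and 0.0381), without a variance trend (0.0362), with array weights (0.0177) and in a fit of the 6 arrays compared (0.0324).

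The other Prox1 probe sets carried little signal. Probe set 1421336_at read 40, 18 and 37 on day 0, 1, 4 and 33 on day 1, and 14, 21 and 22 on day 3, and was called present on 1 array of 9. Probe set 1457432_at was called absent on all 9 arrays. The Prox1 result therefore rests on 1 probe set. Of 7 markers of skeletal muscle, which can also carry Prox1, Ckm, Myh4 and Actn3 did not pass the filter. None of the other 4 was called on either day, with medians of 0.82 on day 1 and 0.51 on day 3. The summed signal of those 4 ran from 415 to 1016 on day 0, 744 to 2018 on day 1 and 722 to 1612 on day 3, and its part in the Prox1 result was not tested.

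Flt4, the receptor for VEGF-C and VEGF-D, was the only member besides Pdpn that was higher on day 3. Its 1444052_at signals were 384, 367 and 451 on day 0, 313, 302 and 435 on day 1, and 511, 576 and 629 on day 3. All day 3 arrays lay above all others, whereas day 1 overlapped day 0, and the day 1 array at 302 was called absent. This probe set was weakly detected, with MAS5 detection p from 0.0107 to 0.0806 over the 9 arrays. Flt4 differed by 0.51 ± 0.17 between day 3 and day 0 (SE, limma adjusted p = 0.0416), by 0.72 ± 0.17 between day 3 and day 1 (adjusted p = 0.0159), and by -0.21 ± 0.17 between day 1 and day 0 (adjusted p = 0.362, 95% interval -0.57 to 0.16). The call against day 0 was lost without day 0 replicate 1 or 2 or without any of the 3 day 3 replicates (adjusted p from 0.0605 to 0.13). The call against day 1 was lost without day 1 replicate 2 or day 3 replicates 2 or 3 (adjusted p from 0.0599 to 0.0622). A further probe set, 1421442_at, read between 41 and 90 on the 9 arrays and was not tested because no day had 3 present calls.

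Vegfc, the main growth factor of lymphatic vessels, fell on day 1 on every probe set. The brightest, 1439766_x_at, whose suffix marks probes that can also match other transcripts, read 567, 644 and 894 on day 0, 301, 428 and 418 on day 1, and 582, 536 and 674 on day 3. Day 1 was the low day, with no overlap with either other day, and day 3 overlapped day 0. The log2 difference was -0.87 ± 0.19 on day 1 (SE, limma adjusted p = 0.00801), -0.21 ± 0.19 on day 3 (adjusted p = 0.453, 95% interval -0.64 to 0.21), and 0.65 ± 0.19 between day 3 and day 1 (adjusted p = 0.0441). The last of these calls was lost without day 0 replicate 2, day 1 replicates 1 or 2 or any of the 3 day 3 replicates (adjusted p from 0.0522 to 0.135). The day 1 call was kept without any single array (adjusted p from 0.0057 to 0.0374).

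The other Vegfc probe sets were also lowest on day 1 and differed from each other on day 3. Probe set 1440739_at read 423, 496 and 633 on day 0, 216, 188 and 233 on day 1, and 397, 370 and 425 on day 3. Probe set 1419417_at read 295, 415 and 510 on day 0, 137, 141 and 134 on day 1, and 243, 231 and 206 on day 3. In a fit of all probe sets they differed by -1.27 ± 0.17 and -1.53 ± 0.20 between day 1 and day 0 (adjusted p = 0.00039 and 0.000279), larger falls than the -0.87 of the brightest. On day 3 only 1419417_at, at -0.81 ± 0.20, was still below day 0 (adjusted p = 0.0126), beside -0.36 ± 0.17 for 1440739_at (adjusted p = 0.149). Over the 9 arrays the 3 probe sets had pairwise Pearson correlations of 0.86 to 0.94. The day 3 call of Vegfc thus differed between its probe sets.

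Lyve1, the hyaluronan receptor, kept its level on day 1 within the limits of the test and fell on day 3. Its brighter probe set, 1429379_at, read 3202, 3686 and 3105 on day 0, 3742, 3693 and 3609 on day 1, and 1730, 2450 and 1992 on day 3. The day 3 arrays lay below all others. The log2 difference was 0.15 ± 0.13 on day 1 (SE, limma adjusted p = 0.412, 95% interval -0.14 to 0.44), -0.71 ± 0.13 on day 3 (adjusted p = 0.00272) and -0.85 ± 0.13 between day 3 and day 1 (adjusted p = 0.00187). Probe set 1453128_at read 1713, 1707 and 1462 on day 0, 1592, 1475 and 1530 on day 1, and 841, 1149 and 994 on day 3. It was also lowest on day 3, at -0.72 ± 0.13 (adjusted p = 0.00303), was not called on day 1 (-0.08, adjusted p = 0.667), and correlated with the brighter at 0.95 over the 9 arrays. The day 3 call was kept without any single array (adjusted p from 0.00158 to 0.0157).

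Macrophages are a further source of Lyve1, and markers of tissue-resident macrophages split on day 3. Of 14 markers, all tested, 5 were higher and 3 lower on day 3, and 4 were higher and 1 lower on day 1. After quantile normalization 5 of the 14 were lower on day 3. The C-type lectin Cd209d was at 1017, 956 and 646 on day 3, against 2211, 2967 and 2426 on day 0, a difference of -1.55 ± 0.20 (limma adjusted p = 0.000251). Timd4, a phosphatidylserine receptor of long-lived macrophages, and Cd209f fell with it, by 1.20 ± 0.15 and 1.11 ± 0.20 on the log2 scale (adjusted p = 0.000165 and 0.00204). These are the same day as the fall of Lyve1, and on day 1 Cd209d, Timd4 and Cd209f, like Lyve1, were not called (-0.31, -0.30 and -0.04). The 5 that were higher on day 3 were Adgre1 and Cd68, which most macrophages carry, at 1.40 ± 0.15 and 1.30 ± 0.14 (adjusted p = 5.83e-05 for each), and Cbr2, Vsig4 and Mrc1, at 0.64, 0.60 and 0.48 (adjusted p = 0.00496, 0.0471 and 0.0369), the last 3 named after their values were seen. The calls of Mrc1 and Vsig4 were lost without day 0 replicates 1 or 3 or day 3 replicates 1 or 2 (adjusted p from 0.0859 to 0.18), that of Vsig4 also without day 1 replicate 2 (0.0531), and that of Mrc1 also after median centring (0.0518). The summed signal of the 14 ran from 67149 to 78557 on day 0, 70788 to 86045 on day 1 and 70766 to 90117 on day 3, with none absent, and their part in the Lyve1 result was not tested.

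Pdpn, which encodes the mucin-like glycoprotein podoplanin, had the largest change of the 6. Its only probe set, 1419309_at, read 1928, 2585 and 2585 on day 0, 10607, 8987 and 7365 on day 1, and 5203, 7441 and 5479 on day 3. Every primed array lay above every day 0 array, and day 1 and day 3 overlapped at 7365 and 7441. The log2 difference was 1.92 ± 0.18 on day 1 (SE, limma adjusted p = 2.17e-05, 95% interval 1.54 to 2.31) and 1.35 ± 0.18 on day 3 (adjusted p = 0.000257, interval 0.96 to 1.73), and both calls were kept in each of the 25 alternatives run. Between day 3 and day 1 it was -0.58 ± 0.18 (adjusted p = 0.0495), a call lost without day 0 replicates 2 or 3, day 1 replicates 1 or 2, or day 3 replicates 1 or 3 (adjusted p from 0.0537 to 0.182).

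Stromal progenitors and fibroblasts can carry podoplanin, and their markers were lower or not called on day 1. Of 14 tested, 0 were higher and 5 lower on day 1, and 1 was higher and 5 lower on day 3. After quantile normalization 8 and after median centring 3 were lower on day 1. The summed signal of these 14 was 171468 to 179051 on day 0, 127467 to 152945 on day 1 and 145684 to 151833 on day 3. The part of these stromal cells in the Pdpn result was not tested. The surface glycoprotein Thy1 differed by -1.19 ± 0.13 on day 1 (limma adjusted p = 6.9e-05), and the platelet-derived growth factor receptor Pdgfra was not called on either day (-0.02 and -0.18). The collagen gene Col1a1 was the only marker higher on day 3, at 1.15 ± 0.22 (adjusted p = 0.00344). Of the keratinocyte markers, Krt5, Krt14, Krt15, Krt1 and Trp63 did not pass the filter, and Krt10 was the only one tested (-0.55 on day 1, adjusted p = 0.0696, and -0.70 on day 3, adjusted p = 0.0306). Its day 3 call was lost without day 0 replicates 2 or 3 or day 3 replicates 1 or 3 (adjusted p from 0.0755 to 0.111) and after quantile normalization (0.0667).

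Markers of blood-borne cells were higher on the days when Pdpn was higher. The summed signal of 6 neutrophil markers was 922 to 1331 on day 0, 39218 to 68863 on day 1 and 8209 to 18850 on day 3, and that of 6 monocyte markers 25837 to 31056, 45059 to 51227 and 37998 to 39871. All 6 neutrophil markers and 5 of the 6 monocyte markers were called higher on day 1, with the other monocyte marker lower, and 5 of each were higher on day 3. Of the 14 resident macrophage markers, 4 were higher and 1 lower on day 1. Cd68 read 2803, 3346 and 3740 on day 0 and 7361, 5869 and 7009 on day 1. Adgre1 read 1523, 1661 and 1596 on day 0 and 3242, 2503 and 2187 on day 1. The part of neutrophils, monocytes and macrophages in the Pdpn result was not tested.

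Partners of podoplanin changed in part. Of 9 tested, 3 were higher and 0 lower on day 1, where 10.7% of all genes were called higher and 17.9% lower. On day 3, 1 was higher and 1 lower, near the shares of all genes, 13.6% and 12.5%. Cd44, a hyaluronan receptor that podoplanin binds, was at 10277, 9253 and 8041 on day 1 and 9680, 10449 and 9374 on day 3, against 3112, 2894 and 2960 on day 0. The differences were 1.61 ± 0.11 and 1.72 ± 0.11 (limma adjusted p = 1.61e-06 and 1.62e-06). The galectin Lgals8 was higher on day 1 (0.66 ± 0.15, adjusted p = 0.00902) and was not called on day 3 (0.26 ± 0.15, adjusted p = 0.229). Ezr, encoding the membrane linker ezrin, differed by -0.71 ± 0.18 on day 3 (adjusted p = 0.0147), a call lost without day 3 replicates 1 or 2 (adjusted p = 0.0638 and 0.0673). Clec1b, which encodes the receptor CLEC-2, did not pass the filter.

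Mmrn1, the secreted multimerin, was lower on both days. Its 1437260_at signals were 257, 355 and 280 on day 0, 163, 204 and 185 on day 1, and 173, 137 and 195 on day 3. All 6 primed arrays lay below all 3 day 0 arrays, and days 1 and 3 overlapped. The log2 difference was -0.68 ± 0.19 on day 1 (SE, limma adjusted p = 0.0215), -0.82 ± 0.19 on day 3 (adjusted p = 0.00869) and -0.14 ± 0.19 between day 3 and day 1 (adjusted p = 0.648, 95% interval -0.56 to 0.28). The day 1 call was lost without day 0 replicate 2 (adjusted p = 0.068), day 0 replicate 3 (0.0529) or day 1 replicate 1 (0.0765), and the day 3 call was kept without any single array (adjusted p from 0.00831 to 0.0419). The other probe set, 1430621_at, was not tested because no day had 3 present calls.

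Platelets also hold multimerin-1, and none of their tested markers was called lower. Of 7 platelet and megakaryocyte markers tested, 2 were higher and 0 lower on each day, while Gp9, Gp6, Clec1b and Treml1 did not pass the filter. The integrin Itga2b differed by -0.01 on day 1 and -0.05 on day 3 (limma adjusted p = 0.984 and 0.859). Among those not called, chosen after their values were seen, the integrin Itgb3 differed by -0.97 on day 1 (adjusted p = 0.0554) and was lower without day 0 replicate 2 or day 1 replicate 3 (0.0451 and 0.00143). Selp, the P-selectin gene of platelets and endothelium, differed by -0.67 and -0.73 (adjusted p = 0.134 and 0.116) and was lower on both days without day 0 replicate 1 (0.00261 and 0.00158). The 2 that were higher, the chemokine genes Pf4 and Ppbp, differed by 1.26 ± 0.18 and 7.35 ± 0.26 on day 1 (adjusted p = 0.000475 and 1.19e-08), and Ppbp was called present on 1 of 3 day 0 arrays. The summed signal of the 7 was 9520 to 15219 on day 0, 22879 to 35749 on day 1 and 21916 to 24999 on day 3. Their part in the Mmrn1 result was not tested.

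Relatives of multimerin-1 and partners of the multimerin family, not all of them partners of multimerin-1 itself, changed in both directions. Of 7 tested, 3 were higher and 2 lower on day 1, and 3 were higher and 1 lower on day 3. Vwf, the endothelial and platelet clotting protein, was at 404, 455 and 587 on day 1 and 799, 760 and 453 on day 3, against 907, 1233 and 1696 on day 0. Its differences were -1.38 ± 0.26 and -0.93 ± 0.26 (limma adjusted p = 0.00313 and 0.0218), and the day 3 call was lost without day 0 replicates 2 or 3 or day 3 replicate 3 (adjusted p from 0.0546 to 0.0904). The elastic fibre genes Emilin1 and Emilin2, of the same protein family, were higher on day 3 by 1.57 ± 0.22 and 0.68 ± 0.12 (adjusted p = 0.000482 and 0.00168). Cd93, an endothelial receptor, was at 8771, 8218 and 7755 on day 3, against 4092, 3881 and 4940 on day 0, and was higher by 0.94 ± 0.14 (adjusted p = 0.000578). F5, encoding a clotting factor, was higher on day 1 (0.70 ± 0.18, adjusted p = 0.0157), but not without day 0 replicates 1 or 3 or day 1 replicate 1 (0.0579 to 0.0635).

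The genes around Vegfc and Flt4 changed in both directions. Of 16 genes of the VEGF-C and VEGF-D axis besides these 2, 4 were higher and 3 lower on day 1, and 9 were higher and 1 lower on day 3, with medians of 0.14 and 0.48. After quantile normalization 8 and after median centring 7 of the 16 were higher on day 3. On day 1 each of these scalings called 5 higher, with 3 and 2 lower. Among ligands, Vegfd, the other ligand of VEGFR-3, was at 1512, 1491 and 1915 on day 1 and 1759, 1631 and 1562 on day 3, against 1270, 1055 and 1280 on day 0. It was thus higher on both days, by 0.45 ± 0.13 and 0.46 ± 0.13 (limma adjusted p = 0.0292 and 0.0257), while Vegfc was lower on day 1. Pgf, encoding placental growth factor, was higher by 1.49 ± 0.22 and 1.72 ± 0.22 (adjusted p = 0.000644 and 0.000202), and the blood vessel growth factor Vegfa by 0.94 ± 0.22 and 0.79 ± 0.22 (adjusted p = 0.0106 and 0.0233). Vegfb, with 192, 168 and 204 on day 1 and 296, 265 and 321 on day 0, was called absent on every day 1 array. By point estimate it was 1.56-fold lower there (limma adjusted p = 0.0119). Vegfb passed the presence filter only through day 0, so its fall from that day was favoured by the filter. Leaving out single arrays ended the calls of Vegfd on day 1 (day 0 replicates 2 or 3 or day 1 replicate 3, adjusted p up to 0.085) and day 3 (day 0 replicate 2 or day 3 replicates 1 or 2, up to 0.103), of Vegfa on day 3 (any day 0 replicate or day 3 replicates 1 or 2, up to 0.102) and of Vegfb on day 1 (day 0 replicate 3, 0.0526), and quantile normalization ended that of Vegfb too (0.0713).

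The receptors did not move together. Kdr, the main VEGF receptor of blood endothelium, was at 849, 846 and 831 on day 1 and 720, 877 and 966 on day 3, against 1245, 1407 and 1437 on day 0. It fell by 0.69 ± 0.13 and 0.68 ± 0.13 on the log2 scale (limma adjusted p = 0.00327 and 0.00318), so that on day 3 Kdr was lower and Flt4 higher than on day 0. Flt1 was lower on day 1 (-0.60 ± 0.16, adjusted p = 0.019) but not without day 0 replicate 3 (adjusted p = 0.0818) or after median centring (0.0523), and Nrp2, a co-receptor for VEGF-C, was higher on day 3 (0.50 ± 0.17, adjusted p = 0.0492). The Nrp2 call was lost without day 0 replicates 1 or 2, day 1 replicate 2 or day 3 replicates 1 or 2 (adjusted p from 0.0546 to 0.162) and under both other scalings (0.0508 and 0.0545). Nrp1 and the VEGF-C receptor integrin Itga9 were not called on either day (-0.24 and -0.12, and -0.29 and 0.08), but quantile normalization called Nrp1 lower on day 1 (-0.39, adjusted p = 0.0414). The integrin Itgb1 was higher on day 3 (0.44, limma adjusted p = 0.0378). Its call was lost without day 0 replicates 1 or 3 or day 3 replicates 1 or 2 (adjusted p from 0.08 to 0.148) and after median centring (0.0533).

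Genes that cut VEGF-C and VEGF-D to their mature forms were mostly higher on day 3. Adamts3, the protease that acts on VEGF-C, was at 55, 75 and 45 on day 1 and 92, 105 and 97 on day 3, against 26, 29 and 42 on day 0. The difference was 1.63 ± 0.30 on day 3 (limma adjusted p = 0.00218) and 0.85 ± 0.30 on day 1 (adjusted p = 0.0501), and the day 1 value crossed the threshold without day 0 replicate 3 or day 1 replicate 3 (adjusted p = 0.0425 and 0.0283) and under both other scalings (0.0308 and 0.0361). The proprotein convertases Pcsk5 and Furin were higher on day 3 by 0.94 ± 0.16 and 0.52 ± 0.13 (adjusted p = 0.00166 and 0.0143), Furin not without day 0 replicate 2 or day 3 replicate 3 (0.0543 and 0.0565), and Pcsk7 was not called (-0.05). Ctsd, the cathepsin that also cuts these ligands, was higher on both days by 0.95 ± 0.11 and 1.18 ± 0.11 (adjusted p = 0.000143 and 2.82e-05). Ccbe1, the cofactor of Adamts3, had present calls on 3 of 3 day 3 arrays and 0 of 3 day 0 arrays. It did not pass the test (0.66 ± 0.27, adjusted p = 0.0961), but did without day 1 replicate 2 (0.0498).

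**Figure D3:**
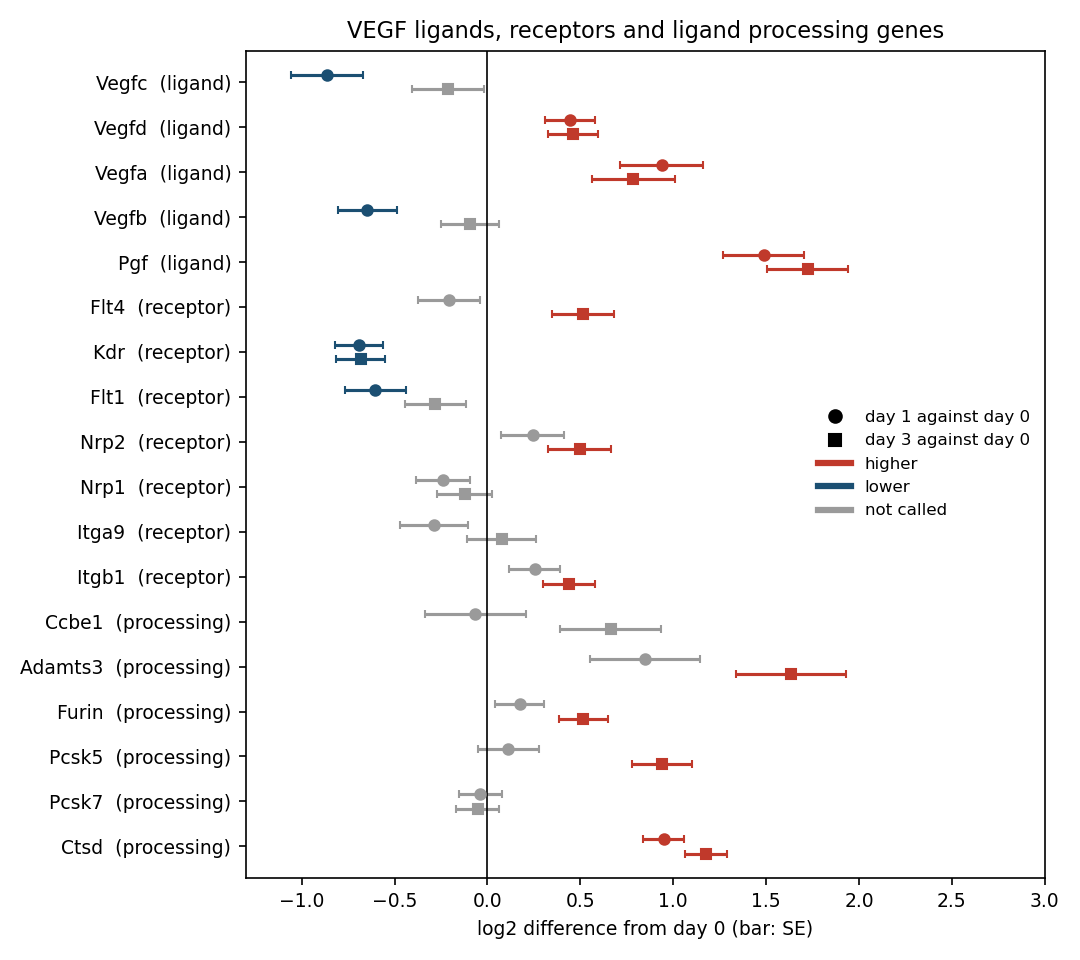
Log2 difference from day 0 (x axis) of Vegfc, Flt4 and the 16 further genes of the VEGF axis, with circles for day 1, squares for day 3, the limma SE as a bar and calls coloured by direction. Vegfc lies at -0.87 on day 1 while Vegfd, Vegfa and Pgf lie above 0 on both days, and on day 3 Flt4 (0.51) and Kdr (-0.68) lie on opposite sides.

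Genes of hyaluronan, the ligand of LYVE-1, rose where they changed. Of 10 tested, 3 were higher and 0 lower on day 1 and 5 were higher and 0 lower on day 3. This list overlaps with others, so its counts are not independent of theirs. Vcan is also among the monocyte markers, Cd44 among the podoplanin partners and Stab2 among the other markers of lymphatic endothelium. Vcan, the hyaluronan-binding proteoglycan versican, was at 8429, 7795 and 5278 on day 1 and 4504, 5850 and 4850 on day 3, against 1870, 1944 and 1909 on day 0. Its differences were 1.88 ± 0.16 and 1.40 ± 0.16 (limma adjusted p = 1.52e-05 and 0.000124). The receptor gene Hmmr, which is also a gene of dividing cells, was higher on day 3 by 2.18 ± 0.18 (limma adjusted p = 1.09e-05). Cemip, which takes part in hyaluronan breakdown, was at 171, 115 and 149 on day 3. By point estimate this was at least 8.02-fold higher than on day 0, when no array had a present call (limma adjusted p = 0.00353). Cemip passed the presence filter only through day 3, its highest day, so its rise was favoured by the filter. The synthases Has1 and Has2 were not called on either day (0.18 and -0.29, and 0.27 and 0.08).

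Transcription factors and valve genes of the lymphatic programme were lower or not called on day 1, a day on which Prox1 was lower. Some read far above Prox1, which was at 131, 82 and 101 on day 0, when Klf2 was at 15073, 13458 and 15395. Which of the mixed cells gave these signals was not tested. Of 15 tested, 0 were higher and 8 lower on day 1, with a median of -0.59, and 2 were higher and 5 lower on day 3, with a median of -0.37. Nr2f2, which acts with Prox1 in lymphatic specification, was at 507, 557 and 574 on day 1 and 900, 854 and 1008 on day 3, against 1098, 1121 and 1350 on day 0. It differed by -1.12 ± 0.13 on day 1 (limma adjusted p = 0.000118) and -0.37 ± 0.13 on day 3 (adjusted p = 0.0549), and the day 3 value crossed the threshold without day 1 replicate 3 (0.0463) and under both other scalings (0.0439 and 0.0471). The valve cadherin Fat4 differed by -1.49 ± 0.18 and -0.74 ± 0.18 (adjusted p = 0.000171 and 0.0117), the day 3 call being lost without day 0 replicate 3 (0.0534). The flow-responsive factor Klf2 differed by -1.20 ± 0.31 and -1.04 ± 0.31 (adjusted p = 0.0153 and 0.0287), the day 1 call being lost without day 0 replicate 3 (0.0551) and the day 3 call without any day 0 replicate or day 3 replicates 1 or 2 (0.0551 to 0.101). Sox18, which switches on Prox1 in development, was not called (-0.49 and 0.26, though lower on day 1 without day 0 replicate 1, 0.00549), the mechanosensitive channel Piezo1 was higher on day 3 (0.60 ± 0.13, adjusted p = 0.00689), and Foxc2, Tbx1 and Dchs1 did not pass the filter. After quantile normalization 6 and after median centring 5 of the 15 were lower on day 1, and centring called 1 higher.

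Other growth signals of lymphatic vessels were mixed. Of 17 tested, 1 was higher and 6 lower on day 1, where 10.7% of all genes were called higher and 17.9% lower. On day 3, 3 were higher and 2 lower, near the shares of all genes, 13.6% and 12.5%. Angpt2, a ligand needed for lymphatic remodelling, was at 944, 1050 and 817 on day 1 and 731, 954 and 700 on day 3, against 324, 409 and 403 on day 0. It was higher by 1.31 ± 0.16 and 1.07 ± 0.16 (limma adjusted p = 2e-04 and 0.000708). Its receptor Tek was lower on day 3 (-0.91 ± 0.15, adjusted p = 0.00121). Tek already read below every day 0 array on day 1, at 1902, 1897 and 1544 against 2437, 3256 and 3531. The ligand gene Efnb2, needed for lymphatic valves, was lower on day 1 (-1.06 ± 0.13, adjusted p = 0.00014) and not on day 3 (-0.08, adjusted p = 0.677). Hgf, encoding hepatocyte growth factor, was higher on day 3 (1.05 ± 0.21, adjusted p = 0.00349). After quantile normalization or median centring 3 of the 17 were higher on day 1.

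Markers of lymphatic endothelium other than the 6 were lower or not called on both days. Whether other cells of the mixed fraction gave part of their signals was not tested. Of 14 tested, 0 were higher and 6 lower on day 1 and 0 were higher and 4 lower on day 3, with medians of -0.52 and -0.58. Itih5 was at 4132, 3553 and 4076 on day 1 and 4579, 4569 and 3587 on day 3, against 7358, 8366 and 9210 on day 0, and differed by -1.08 ± 0.13 and -0.97 ± 0.13 (limma adjusted p = 0.000149 and 0.000277). The secretory granule gene Scg3 was called present on all 3 day 0 arrays and on none afterwards. By point estimate it was 4.48-fold lower on day 3 (limma adjusted p = 0.00363). Scg3 passed the presence filter only through day 0, its highest day, so its fall was favoured by the filter. Ackr2, the decoy chemokine receptor of lymphatic endothelium, was at 517, 525 and 511 on day 3, against 844, 1027 and 1146 on day 0, and differed by -0.95 ± 0.14 (adjusted p = 0.000686). Stab2, which is shared with other endothelium, was not called on either day (-0.39 and 0.13). On day 1 the counts of lower genes were 3 after quantile normalization and 4 after median centring, which also called 2 higher, and Ccl21a has no probe set of its own on the array.

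Blood and common endothelial markers were lower on day 1 with the lymphatic ones. Of 24 tested, 0 were higher and 18 lower on day 1, with a median of -0.61, and 1 was higher and 7 lower on day 3, with a median of -0.26. Median centring left 13 of the 24 lower on day 1. Their summed signal was 47808 to 65498 on day 0, 34648 to 40081 on day 1 and 41368 to 50284 on day 3. Ptprb, an endothelial phosphatase, differed by -1.35 ± 0.20 and -1.14 ± 0.20 (limma adjusted p = 0.000722 and 0.00189), and Pecam1, which marks both blood and lymphatic endothelium, was not called (-0.35 and -0.15, adjusted p = 0.108 and 0.513). Cdh5, the cadherin of endothelial junctions, was at 3600, 3731 and 3258 on day 3, against 2771, 2481 and 3591 on day 0, and was not called there (0.28 ± 0.14, adjusted p = 0.157), but passed without day 0 replicate 3 (0.0342). The day 1 falls of Prox1, Vegfc and Mmrn1 thus came on a day when most endothelial markers were lower, and the part of endothelial content in them was not tested.

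The inguinal fat pad holds a lymph node, and markers of lymph node venules, stroma and follicles fell on day 3. Of 7 tested, 1 was higher and 3 lower on day 1, and 0 were higher and 6 lower on day 3, with medians of -0.71 and -1.29. Their summed signal was 21305 to 23853 on day 0, 16663 to 22242 on day 1 and 5740 to 8984 on day 3. The follicle chemokine Cxcl13 was at 2581, 2696 and 3300 on day 3, against 7017, 7630 and 6204 on day 0 (-1.29 ± 0.14, limma adjusted p = 7.1e-05), and was the marker called higher on day 1 (0.83 ± 0.14, adjusted p = 0.00156). On day 1 the call of Glycam1 (-1.84, limma adjusted p = 0.0476) was lost without any single day 0 or day 3 replicate or day 1 replicates 1 or 2 (0.0527 to 0.129). That of Cr2 (-1.17, adjusted p = 0.0188) was lost without day 0 replicate 1 or day 1 replicates 1 or 2 (0.0507 to 0.0731). Median centring left 2 of the 7 lower on day 1. The mean log2 signal of the 7 relative to day 0 was lower on every day 1 array, at -1.41 to -0.176, against -0.127 to 0.156 on day 0. The lower levels coincided in day with those of Prox1 and Vegfc on day 1, Lyve1 on day 3 and Mmrn1 on both days. Their part in any of these was not tested.

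**Figure D4:**
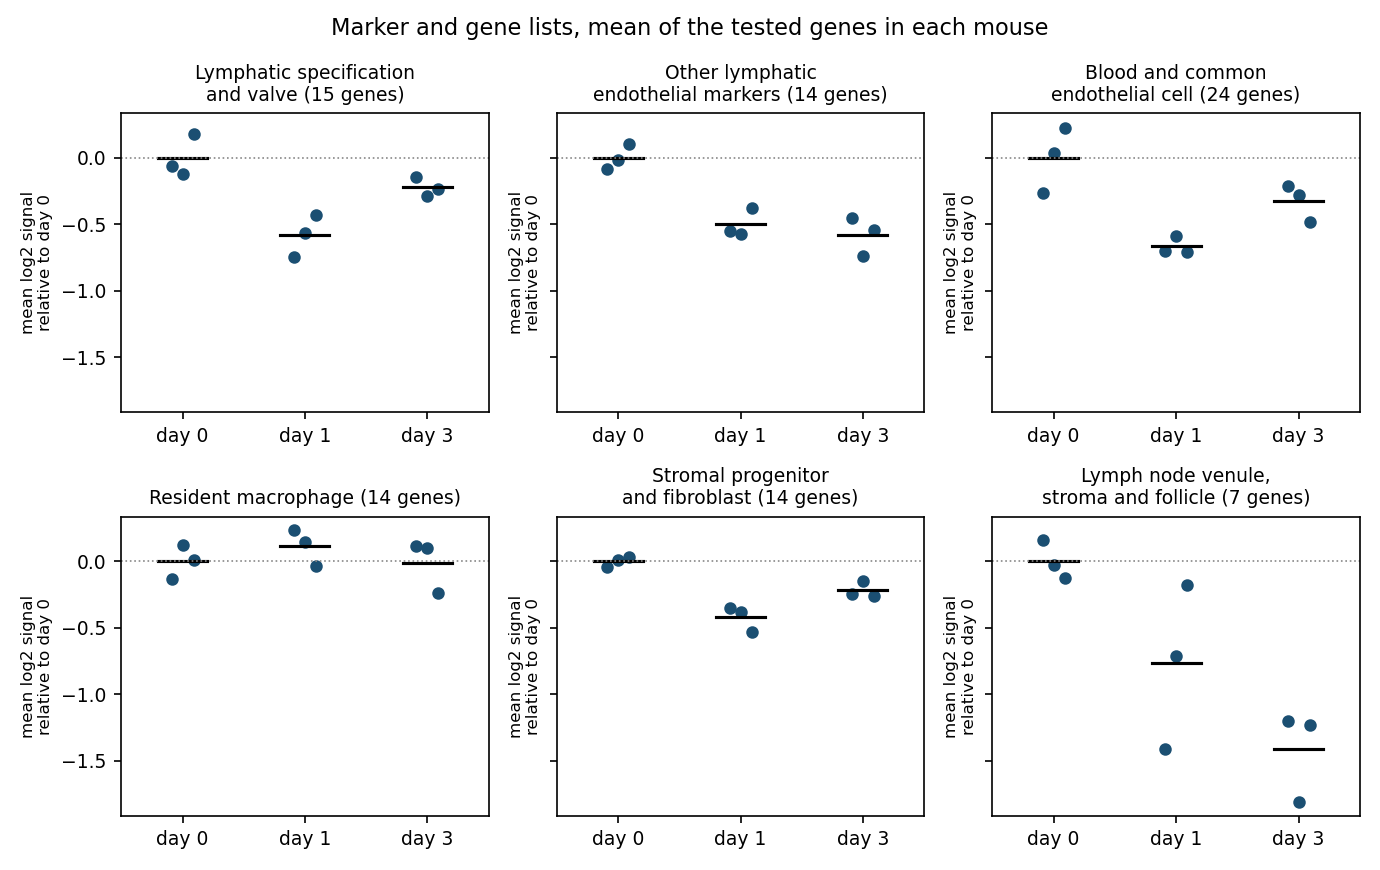
Average log2 signal of 6 gene lists after subtraction of the day 0 average (y axis), with 1 point per mouse and a line at the mean of each day. Every list but that of resident macrophages is lower on all day 1 arrays than on any day 0 array, while the resident macrophage list overlaps between days.

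Over the 9 arrays the members fell into opposing patterns, given as a description because all points share the 3 days. Prox1 and Pdpn had a Pearson correlation of -0.94, Lyve1 and Flt4 -0.82, and Pdpn and Mmrn1 -0.80, while Prox1 correlated with Vegfc at 0.68 and with Mmrn1 at 0.66. Lyve1 had correlations of 0.01 with Prox1 and 0.00 with Pdpn. The lymphatic transcription factor and the lymphatic hyaluronan receptor thus had no common course in these arrays.

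The genes most like each member over the 9 arrays differed between members. For Pdpn they were Hp, encoding haptoglobin, the cytokine gene Il1b, the neutrophil chemokine Cxcl3, Vcan and the cytokine gene Osm (r from 0.987 to 0.991). For Prox1 they were Trit1, Letmd1, L3mbtl3, Dgkd and Heg1, the last an endothelial junction gene (r from 0.985 to 0.994), and for Lyve1 they were Cadm3, Il1r2, Pnp, Ubxn4 and Ugdh (r from 0.933 to 0.943). For Flt4 they were Rap1gds1, the thrombin receptor F2r, Ubap2, Ergic1 and Trim27 (r from 0.948 to 0.973). Vegfc was most like Aplp2, Prkch, Ptprm, Wdr44 and Gtf3c2 (r from 0.951 to 0.962), and Mmrn1 most like Srpk2, Zfp664, Angel2, Bhlhb9 and Hspa2 (r from 0.961 to 0.967).

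A present call was given to 25677 to 26299 probe sets on day 0, to 24106 to 25557 on day 1 and to 25069 to 25292 on day 3. The lowest signal called present on an array ran from 6.19 to 10.2, below every value of the tested probe sets of the 6 members. That does not show detection, because a call does not follow the signal alone, and Flt4 at 302 was called absent. Over the tested genes, pairs of mice from 1 day correlated at 0.971 to 0.988 and pairs from different days at 0.902 to 0.971 in log2 signal, and the 3′ to 5′ ratio of the actin control, a measure of RNA integrity, was 1.15 to 1.32. The number of arrays, 3 a day, limits the precision of every value.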

How the data were processed

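Total RNA of the SVF of 9 mice was hybridised to Affymetrix Mouse Genome 430 2.0 arrays, 1 array per mouse. The authors summarized probe intensities with MAS5 and deposited signal intensities on a linear scale, whose mean after 2% is trimmed at each end is 500 on every array, with a detection call and its p-value per probe set. The signals were used as deposited and taken to log2 without an offset. Probe sets with several gene symbols (932), no symbol (9160) or a control sequence (64) were left out. A probe set was tested when some day had present calls in all 3 of its mice (24920 probe sets), and the brightest probe set stood for a gene. All 3 days entered a single limma fit (version 3.58.1 in R 4.3.3) with a variance trend, 6 residual degrees of freedom and Benjamini-Hochberg adjustment over 11796 genes for each comparison. The fit was tested on simulated data.

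The methods describe 3 individual mice a day. The 6 members are named with every probe set, and of each further list up to 3 called genes with the largest change and up to 2 others on each day, with the VEGF axis named freely and the 5 most correlated genes of each member. Members and lists were chosen with earlier results of these data known. For a gene called absent on all arrays of a day, a fold takes for that day the larger, on each array, of the gene's signal and the array's dimmest present signal. Such a fold is a point estimate that leaves out the spread between mice. It is given as "at least N-fold" where the dimmest present signal stood in for the gene's own. Alternatives were other scalings, offsets, filters, probe set rules and fits, and leaving out each array.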

Additional observations from a re-analysis of the deposited data

Results flagged for a closer look

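For 4 of the 6 members the change from day 0 differed between day 3 and day 1 in the limma test of that difference, which compares the days directly and in which the day 0 level cancels. Lyve1 differed by -0.85 and Pdpn by -0.58 on the log2 scale, both lower on day 3 than on day 1. Flt4 differed by 0.72 and Vegfc by 0.65, both higher on day 3 than on day 1. The adjusted p was 0.00187 for Lyve1, 0.0159 for Flt4, 0.0441 for Vegfc and 0.0495 for Pdpn.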

How the results depend on the processing

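Over the member results and all alternatives, 366 kept their direction and their side of the threshold, 74 lost the call, 6 gained it and 1 changed sign. The sign change was Mmrn1 between day 3 and day 1, at 0.001 without day 3 replicate 2 (adjusted p = 0.997), in a range of -0.254 to 0.001 over single arrays left out. The number of members called was 4 in each comparison. Between day 3 and day 1 it was 2 after quantile normalization, without a filter, with every probe set by itself and without a variance trend. An adjusted p under 0.01 left 2 on day 1 and 1 between day 3 and day 1. A limit of at least 2-fold left 2 on day 1, 1 on day 3 and 0 between day 3 and day 1, where limma without that limit called 4. The analysis of variance of the methods with its 2-fold limit gave 2, 1 and 0 unadjusted, and 1, 1 and 0 after Benjamini-Hochberg adjustment. Leaving out single arrays gave 2 to 4 on day 1, 3 to 5 on day 3 and 1 to 4 between day 3 and day 1. The lowest count, 1, was without day 1 replicate 2 or day 3 replicate 3. The labels share replicate numbers, but samples with the same number did not deviate together (correlations from -0.147 to 0.331), and a fit with the replicate block called 4, 4 and 4 members. The 6 residual degrees of freedom limit what the smaller changes can show.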
